A study of Mus musculus with 12 samples.

Results

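Chemokines of the CXC class are small secreted proteins that bind glycosaminoglycans and guide leukocytes through receptors coupled to G proteins. In mice the ligands Cxcl1, Cxcl2 and Cxcl3 attract neutrophils through Cxcr2, the interferon-inducible Cxcl9 and Cxcl10 attract T and NK cells through Cxcr3, and Cxcl16 is made as a membrane protein that is cleaved to a soluble ligand of Cxcr6 and also takes up oxidised lipoprotein. Platelet factor 4 (Pf4, also called Cxcl4) is stored in platelet granules and is made by some macrophages as well, and Cxcl14 is best known from epithelia. The 8 genes Cxcl1, Cxcl2, Cxcl3, Cxcl9, Cxcl10, Cxcl14, Cxcl16 and Pf4 are described here, out of 22180 genes measured on the arrays. They were chosen by name as CXC class ligands, and each had 1 probe set annotated to it alone, so no choice between probe sets was needed.

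The arrays held RNA from primary macrophages of mice, 3 arrays in each of 4 groups. KO TAMs were macrophages lacking Cd36 that had been kept for 72 h together with the mouse multiple myeloma line 5TGM1, and WT TAMs were wild-type macrophages from the same kind of culture. KO MΦs and WT MΦs were the macrophages of each genotype cultured without myeloma cells. All groups grew in RPMI medium with 10% serum. Cd36 is a scavenger receptor for oxidised lipids and fatty acids. The labels give no time in culture for the cells kept alone, no sex, no account of how myeloma cells were removed and no statement that replicates came from separate animals or cultures, so a TAM against MΦ difference can hold an effect of culture time and p-values measure only the spread between these samples. The number of arrays limits the precision.

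Levels are log2 RMA intensities, given ± SD with n = 3 arrays a group. Differences are log2 differences ± SE from 1 limma fit over all 12 arrays, and a gene is called where its p, adjusted by Benjamini-Hochberg over the 22180 genes, is under 0.05. In bulk RNA fewer cells of a type and less RNA per cell cannot be told apart. Arrays correlated within groups at 0.995 to 0.996 in KO MΦs and 0.996 to 0.997 in WT MΦs, but at 0.982 to 0.994 in KO TAMs and 0.988 to 0.995 in WT TAMs. Among the TAM arrays KO TAM 1 and WT TAM 2 lay farthest from their groups. Genes more than 1 log2 unit away from the mean of the group's other arrays were counted. There were 550 such genes on KO TAM 1 and 414 on WT TAM 2, against 303 on KO TAM 3 and between 4 and 113 on the other arrays. Results that turn on these arrays are given with and without them. Cd36 lay at 8.45 to 9.66 on the 6 KO arrays and 12.10 to 12.53 on the 6 WT arrays. The KO arrays also had Xist at 3.91 to 4.35, against 11.08 to 11.32 on the WT arrays, and the Y-linked Uty at 9.71 to 9.99, against 3.27 to 3.91, so genotype and the sex pattern cannot be told apart in any KO against WT difference below. The macrophage markers Adgre1 (12.16 to 12.83) and Cd68 (12.05 to 13.07) were high on all arrays.

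Between TAMs and MΦs, 4 of the 8 genes were called in wild-type cells and 1 in Cd36-deficient cells. In WT TAMs against WT MΦs, 3 of the 8 rose (Cxcl1, Cxcl2 and Pf4) and 1 fell (Cxcl9), while 11.5% of all genes were called, 5.89% as higher and 5.66% as lower. In KO TAMs against KO MΦs only Pf4 was called, and it rose, where 6.53% of all genes were called, 2.9% as higher and 3.63% as lower. In KO MΦs against WT MΦs only Cxcl9 was called, and it fell, where 11.3% of all genes were called, 5.19% as higher and 6.13% as lower. In KO TAMs against WT TAMs only Cxcl1 was called, and it fell, where 12.2% of all genes were called, 5.03% as higher and 7.19% as lower. The difference between the co-culture differences of the genotypes, the interaction, was called for 0 of the 8 genes and for 0.194% of all genes, while 2 of the 8, Cxcl9 and Cxcl10, had an unadjusted limma p under 0.05.

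The ranges of the arrays did not overlap for 7 of the 8 genes in WT TAMs against WT MΦs, as for 30.1% of all genes. The same held for 4 of the 8 in KO TAMs against KO MΦs, with 26.3% of all genes, and for 0 of the 8 in KO TAMs against WT TAMs, with 24.6% of all genes. An exact permutation test of 3 against 3 arrays gives p = 0.1 at best, and all of these pairs without overlap had that value.

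**Figure D1:**
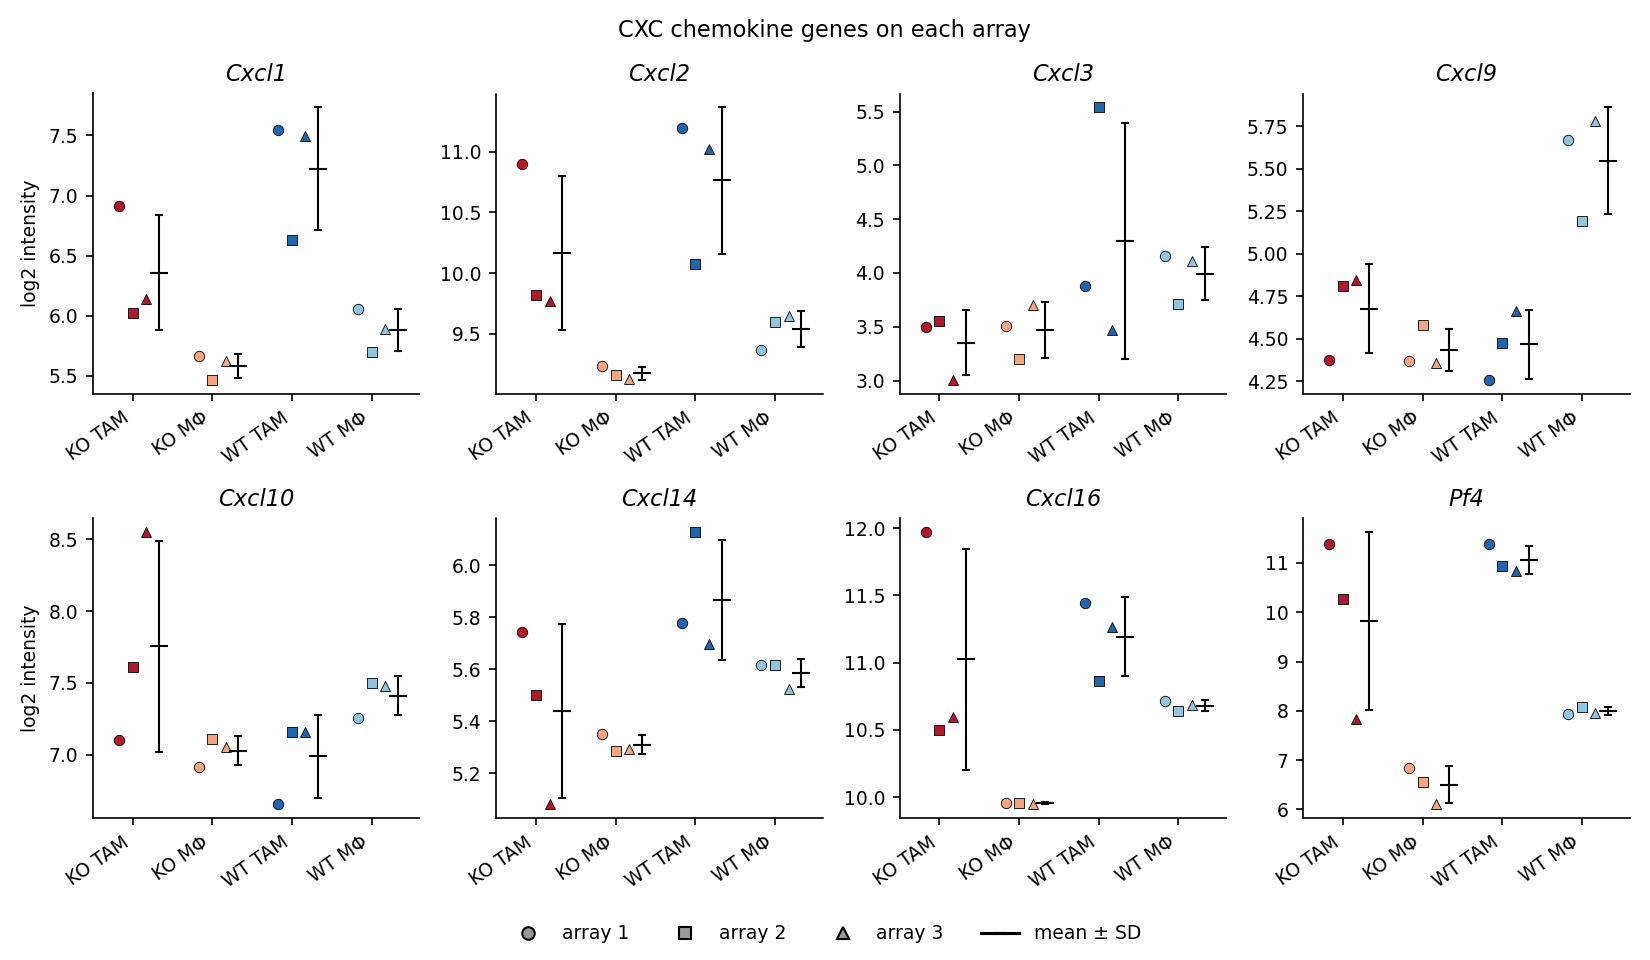
Log2 intensity of each of the 8 genes on each array, with array 1, 2 and 3 as circle, square and triangle and the group mean ± SD beside them (n = 3). Pf4 stands higher on all TAM arrays than on MΦ arrays of its genotype, Cxcl9 is high in WT MΦs alone, and all 8 genes lie lower in KO MΦs than in WT MΦs.

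**Figure D2:**
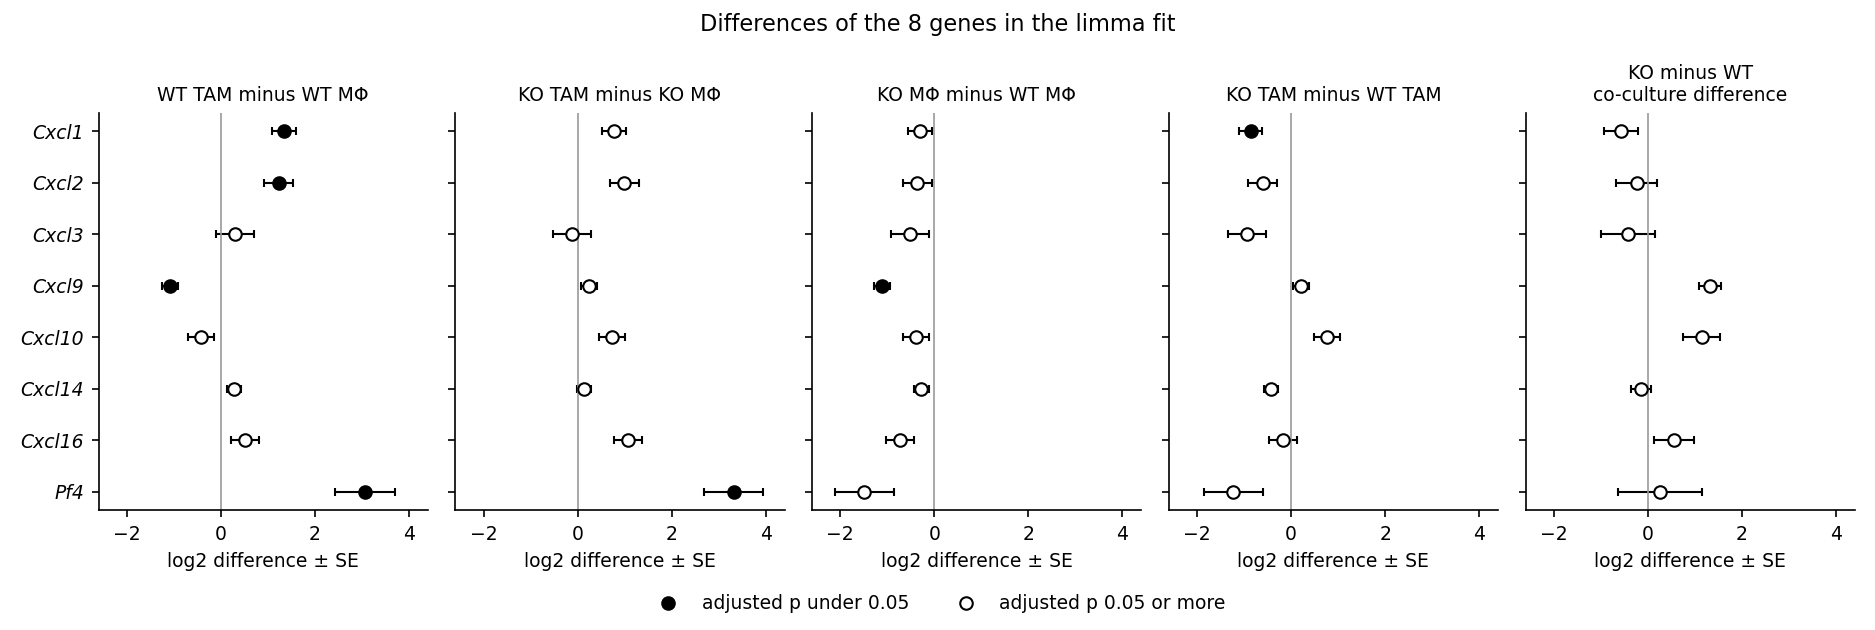
Log2 differences ± SE of the 8 genes in the 5 comparisons of the limma fit, with filled points for an adjusted p under 0.05. Of the 40 points, 7 are filled, 4 of them in WT TAMs against WT MΦs.

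The neutrophil ligands Cxcl1 and Cxcl2 rose in WT TAMs. Centred on each gene's mean they had a similar pattern over the 12 arrays, though not the same order of arrays within each group. Their levels were unlike, with a mean over all arrays of 6.26 for Cxcl1 and 9.91 for Cxcl2. Cxcl1 was at 6.91, 6.03 and 6.14 on KO TAM arrays and 5.66, 5.47 and 5.62 on KO MΦ arrays, and at 7.54, 6.63 and 7.49 on WT TAM arrays and 6.05, 5.70 and 5.89 on WT MΦ arrays. Every TAM array thus stood above every MΦ array of its genotype, with KO TAM 1 high and WT TAM 2 low for their groups. Cxcl1 rose by 1.34 ± 0.25 in WT TAMs, 2.53-fold, with an adjusted limma p of 0.00504. Its difference in KO TAMs was 0.78 ± 0.25 (adjusted p = 0.0975). Between KO MΦs and WT MΦs it was -0.30 ± 0.25 (adjusted p = 0.522), although the ranges did not overlap.

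Cxcl1 was the 1 gene of the 8 that differed between the TAM groups, and this call was not stable. It averaged 6.36 ± 0.48 in KO TAMs and 7.22 ± 0.51 in WT TAMs, a fall of 0.86 ± 0.25 in KO TAMs (adjusted p = 0.0453). The ranges overlapped, since KO TAM 1 at 6.91 stood above WT TAM 2 at 6.63. The call was also lost under both other scalings of the arrays (adjusted p = 0.0543 and 0.0894). It was lost without WT TAM 1 (adjusted p = 0.153), WT TAM 3 (0.151), KO TAM 2 (0.166) or KO TAM 3 (0.143), and the exact two-sided permutation test gave p = 0.2 for these 3 against 3 arrays, where 0.1 is the smallest it can give. With only the TAM arrays in the fit the adjusted p was 0.191. Without both KO TAM 1 and WT TAM 2, a choice made after the data were seen, the difference was -1.43 and the interaction was -1.14 (adjusted p = 0.00277), against an interaction of -0.56 ± 0.36 (adjusted p = 0.667) with all arrays.

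Cxcl2 was at 10.90, 9.82 and 9.77 on KO TAM arrays and 9.23, 9.16 and 9.12 on KO MΦ arrays, and at 11.19, 10.07 and 11.03 on WT TAM arrays and 9.37, 9.59 and 9.64 on WT MΦ arrays. Here too the TAM and MΦ ranges were apart in both genotypes, and KO TAM 1 and WT TAM 2 were the odd arrays of their groups. Cxcl2 rose by 1.23 ± 0.31 in WT TAMs, 2.34-fold, with an adjusted limma p of 0.0220. That call was lost without any 1 of the WT MΦ arrays (adjusted p = 0.0573 to 0.0872), without WT TAM 1 (0.0892) or without WT TAM 3 (0.0796). The KO co-culture difference was 0.99 ± 0.31 (adjusted p = 0.0804), and the difference of KO TAMs from WT TAMs was -0.60 ± 0.31 (adjusted p = 0.250). Without KO TAM 1 and WT TAM 2, a choice made after the data were seen, the last of these was -1.31 (adjusted p = 2.46e-05). KO TAM 1 was the highest KO TAM array and WT TAM 2 the lowest WT TAM array, so leaving them out had to widen this difference.

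Cxcl3 did not follow the other neutrophil ligands. Its levels were 3.49, 3.56 and 3.01 on KO TAM arrays and 3.51, 3.20 and 3.71 on KO MΦ arrays, and 3.88, 5.54 and 3.47 on WT TAM arrays and 4.16, 3.71 and 4.11 on WT MΦ arrays. WT TAM 2 alone was high, and the other 11 arrays lay between 3.01 and 4.16, near the low end of the arrays' scale. The WT co-culture difference was 0.31 ± 0.40 (adjusted p = 0.730) and turned to -0.32 without WT TAM 2. Cxcl5, another Cxcr2 ligand, was also highest on WT TAM 2, at 7.11 against 4.15 and 4.31 on WT TAM 1 and 3. On the same array stromal and fibroblast markers had their highest mean log2 level, 8.79, where the WT TAM group began at 7.75, and their part in the Cxcl3 and Cxcl5 values was not tested.

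Over the 12 arrays, centred on each gene's mean, Cxcl1 and Cxcl2 differed by a root mean square of 0.184 log2 units, where their own deviations were 0.688 and 0.709. The ranking left out small RNAs, predicted Gm and Rik genes and genes named by accession. Of the genes ranked Cxcl2 was the third nearest to Cxcl1, behind the endocytic adaptor Dab2 (0.167) and the heparan sulfate proteoglycan Sdc4 (0.182). Dab2 (0.159), the transcription factor Etv3 (0.169) and Sdc4 (0.172) were nearest to Cxcl2. Cxcl3 was far from both, at 0.844 from Cxcl1 and 0.913 from Cxcl2. In assembly GRCm38.p6 of RefSeq, 7 genes follow each other on chromosome 5 in the order Cxcl5, Ppbp, Pf4, Cxcl3, Cxcl15, Cxcl1 and Cxcl2, so close neighbours included genes with unlike levels across the arrays.

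The bases just before the start of Cxcl1, Cxcl2 and Cxcl3 are shown because these promoters hold the same run of bases and yet only Cxcl1 and Cxcl2 were called. They are from RefSeq, build GRCm38.p6, plus strand, and end at the base before the gene's start. Capitals mark GGGAATTTCCC, the longest run of bases that the 3 promoters share, which has the form of a site for NF-kappaB, the main inflammatory transcription factor.
Cxcl1, chr5:90891125-90891244: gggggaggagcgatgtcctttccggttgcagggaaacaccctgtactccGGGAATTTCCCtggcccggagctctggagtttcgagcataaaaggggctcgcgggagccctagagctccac
Cxcl2, chr5:90903779-90903898: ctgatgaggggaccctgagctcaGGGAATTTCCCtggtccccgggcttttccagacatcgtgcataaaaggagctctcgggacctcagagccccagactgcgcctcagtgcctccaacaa
Cxcl3, chr5:90785981-90786100: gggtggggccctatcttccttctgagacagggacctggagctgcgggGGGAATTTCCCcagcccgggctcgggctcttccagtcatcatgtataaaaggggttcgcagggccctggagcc

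The run was found by comparing the 250 bases before each start, a choice made after these promoters had been read, and windows of that length were then searched for it on both strands in 7 of the 8 genes, Cxcl16 being without one. It is 11 bases long and begins 71 bases before the start of Cxcl1, 97 before that of Cxcl2 and 73 before that of Cxcl3. It was held by 14 of 32851 promoter windows (0.0426%), and by none of Cxcl9, Cxcl10, Cxcl14 and Pf4. Only this exact run was searched. Its absence does not say that a promoter lacks other forms of an NF-kappaB site, which were not looked for. All 3 neutrophil ligands therefore had the same letters near the start, while WT TAMs had higher Cxcl1 and Cxcl2 and a Cxcl3 level that was high on 1 array alone. A match of letters is a description of the sequence and was not tied to binding here.

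The interferon-inducible ligand Cxcl9 was high in WT MΦs and nowhere else. It measured 4.38, 4.81 and 4.84 on KO TAM arrays and 4.37, 4.58 and 4.35 on KO MΦ arrays, and 4.26, 4.48 and 4.66 on WT TAM arrays and 5.67, 5.19 and 5.78 on WT MΦ arrays. The 3 WT MΦ arrays stood above the other 9, which overlapped among themselves, and no array passed a log2 level of 6. Cxcl9 fell by 1.08 ± 0.17 in WT TAMs against WT MΦs, 2.12-fold (adjusted p = 0.00181). In KO MΦs it fell by 1.11 ± 0.17 against WT MΦs, 2.16-fold (adjusted p = 0.00190). Both calls held with each array left out in turn, with adjusted limma p up to 0.0119 and 0.0127.

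In KO cells co-culture gave a Cxcl9 difference of 0.24 ± 0.17 (adjusted p = 0.494), and KO TAMs differed from WT TAMs by 0.21 ± 0.17 (adjusted p = 0.506). The interaction was 1.32 ± 0.24, with an adjusted p of 0.0608, so the genotypes were not shown to differ in their co-culture difference at this threshold. It passed without KO TAM 1 (1.47, adjusted p = 0.00843), without WT TAM 2 (1.33, 0.0446) and without WT MΦ 2 (adjusted p = 0.0441), and the adjusted p without single arrays ranged from 0.00843 to 0.197. Of the genes ranked, Olfr820 had the most similar centred levels, at a root mean square of 0.235 where Cxcl9's own deviation was 0.491.

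Cxcl10, the other interferon-inducible ligand of Cxcr3, had its highest level on KO TAM arrays. It was at 7.10, 7.61 and 8.55 on KO TAM arrays and 6.92, 7.11 and 7.06 on KO MΦ arrays, and at 6.66, 7.16 and 7.16 on WT TAM arrays and 7.25, 7.50 and 7.48 on WT MΦ arrays. KO TAM 3 stood out as high, KO TAM 1 reached only the KO MΦ range, and the WT TAM arrays all lay below the WT MΦ arrays. The difference was 0.73 ± 0.28 in KO TAMs against KO MΦs (adjusted p = 0.160) and -0.42 ± 0.28 in WT TAMs against WT MΦs (adjusted p = 0.418). KO TAMs differed from WT TAMs by 0.76 ± 0.28 (adjusted p = 0.104), and KO MΦs from WT MΦs by -0.38 ± 0.28 (adjusted p = 0.444).

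None of these Cxcl10 differences passed the threshold in the fit with all arrays weighted equally and no block. The interaction was 1.15 ± 0.39, with an adjusted p of 0.349 in the limma fit over all genes. Without KO TAM 1 the KO co-culture difference was 1.05 (adjusted p = 0.0264), the difference between TAM groups 1.09 (adjusted p = 0.00903) and the interaction 1.47 (adjusted p = 0.0428). With KO TAM 1 kept, array weights called these as well (adjusted p = 0.0366, 0.0197 and 0.0444), and the replicate number as a block called the difference between TAM groups (0.76, adjusted p = 0.0476). With only the MΦ arrays in the fit the difference between the MΦ groups was called (-0.38, adjusted p = 0.0256). The type I interferon genes had a like order among KO TAM arrays, with a mean log2 level over 19 measured genes of 8.65, 9.61 and 9.84 on KO TAM 1, 2 and 3, and 8.84 to 8.88 in KO MΦs. In WT TAMs that mean ran between 8.32 and 9.12, and in WT MΦs between 8.74 and 8.83.

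The 250 bases before the start of Cxcl10 are shown because its level followed the same order as the type I interferon genes on the KO TAM arrays. They are from RefSeq, build GRCm38.p6, minus strand, written 5′ to 3′ of the gene. Capitals mark AANNGAAA, the core letters bound by interferon regulatory factors, which begin 211 bases before the start.
Cxcl10, chr5:92348890-92349139: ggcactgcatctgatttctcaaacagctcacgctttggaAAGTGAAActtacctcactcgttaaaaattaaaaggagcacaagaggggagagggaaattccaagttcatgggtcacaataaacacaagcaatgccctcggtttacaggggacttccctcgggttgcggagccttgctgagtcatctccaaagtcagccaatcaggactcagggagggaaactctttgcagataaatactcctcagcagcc

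AANNGAAA was searched on both strands and was held by 21.3% of the 32851 windows. Of the 7 genes searched, Cxcl14 also held it, 170 bases before its start. In Cxcl9 it was not found, which says only that these letters are not in those bases. In GRCm38.p6 the genes Cxcl9, Art3, Cxcl10 and Cxcl11 follow each other on chromosome 5.

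Cxcl16, the membrane-anchored ligand of Cxcr6, lay higher on TAM arrays than on MΦ arrays in both genotypes, and was called in neither. It was at 11.97, 10.50 and 10.60 on KO TAM arrays and 9.96, 9.96 and 9.94 on KO MΦ arrays, and at 11.44, 10.87 and 11.27 on WT TAM arrays and 10.71, 10.64 and 10.69 on WT MΦ arrays. The ranges of TAMs and MΦs did not overlap in either genotype, the gap in WT cells was 0.15, and KO TAM 1 stood 1.38 above the next KO TAM array. Cxcl16 differed by 1.07 ± 0.30 in KO TAMs against KO MΦs (adjusted p = 0.0567) and by 0.51 ± 0.30 in WT TAMs against WT MΦs (adjusted p = 0.347). The KO difference was called without KO TAM 1 (0.59, adjusted p = 0.0296), without KO TAM 2 (1.33, 0.0290) or without KO TAM 3 (1.28, 0.0343).

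Between the MΦ groups Cxcl16 averaged 9.95 ± 0.01 in KO MΦs and 10.68 ± 0.04 in WT MΦs. Its difference of -0.73 ± 0.30 was far larger than the spread of the MΦ arrays but not called in the fit over all 12 arrays (adjusted p = 0.154), which takes its error from TAM arrays too. With only the MΦ arrays in the fit the adjusted p was 0.000242. KO TAMs and WT TAMs did not differ beyond their spread (-0.17 ± 0.30, adjusted p = 0.795). Without KO TAM 1 that difference was -0.64 (adjusted p = 0.00801).

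Cxcl14 varied little. It was at 5.74, 5.50 and 5.08 on KO TAM arrays and 5.35, 5.28 and 5.29 on KO MΦ arrays, and at 5.78, 6.13 and 5.70 on WT TAM arrays and 5.62, 5.62 and 5.52 on WT MΦ arrays. KO TAM arrays lay on both sides of the KO MΦ arrays, while WT TAM arrays stood just above WT MΦ arrays. The difference of KO TAMs from WT TAMs was -0.43 ± 0.15 (adjusted p = 0.0972) and passed without KO TAM 1 (-0.58, adjusted p = 0.0177). The remaining differences were 0.13 ± 0.15 for KO co-culture, 0.28 ± 0.15 for WT co-culture and -0.28 ± 0.15 for KO MΦs against WT MΦs, with adjusted p between 0.300 and 0.709.

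Pf4 rose most of the 8 in both genotypes. It was at 11.38, 10.26 and 7.84 on KO TAM arrays and 6.84, 6.56 and 6.10 on KO MΦ arrays, and at 11.39, 10.95 and 10.84 on WT TAM arrays and 7.94, 8.08 and 7.95 on WT MΦ arrays. TAM and MΦ ranges were apart by 0.995 in KO cells and 2.76 in WT cells, and KO TAM 3, the lowest TAM array, lay below every WT MΦ array. Pf4 rose by 3.32 ± 0.63 in KO TAMs, 10.0-fold (adjusted p = 0.00971), and by 3.07 ± 0.63 in WT TAMs, 8.38-fold (adjusted p = 0.00803). It was the only one of the 8 called in both co-culture comparisons in 1 direction, as 4.02% of all genes were. With only the KO arrays in the fit the KO call was lost (adjusted p = 0.081).

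The order of Pf4 levels was WT TAMs, KO TAMs, WT MΦs and KO MΦs, and only the last 2 of these neighbours did not overlap. Pf4 averaged 6.50 ± 0.37 in KO MΦs and 7.99 ± 0.08 in WT MΦs, a difference of -1.49 ± 0.63 that was not called (adjusted p = 0.164). It averaged 9.83 ± 1.81 in KO TAMs and 11.06 ± 0.29 in WT TAMs, and the difference of -1.23 ± 0.63 was not called either (adjusted p = 0.253). Without KO TAM 1 that difference between the TAM groups was -2.01 (adjusted p = 0.0208). The SD of Pf4 in KO TAMs was larger than that of 99.9% of genes in that group. The interaction of 0.26 ± 0.89 was not called (adjusted p = 0.960) and turned to -0.52 without KO TAM 1. Of the genes ranked, the guanine deaminase Gda had the most similar centred levels over the 12 arrays, at a root mean square of 0.413. The endothelin receptor Ednrb (0.452) and the interleukin receptor Il7r (0.569) came next, where Pf4's own deviation was 1.90.

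Platelet and megakaryocyte markers were called in both directions in the comparisons where Pf4 rose. Of 15 such genes measured of 18, 2 rose and 1 fell in WT TAMs against WT MΦs, and 1 rose and 1 fell in KO TAMs against KO MΦs. That is 20% and 13.3% of the list, where 11.5% and 6.53% of all genes were called. Those were Treml1 (0.79) and Vwf (0.96) as higher and Gp9 (-1.15) as lower in WT TAMs, and Thbs1 (2.79), which fibroblasts and macrophages make too, as higher and Gp9 (-0.92) as lower in KO TAMs, the last a call lost under a second quantile normalization. Of the list, 9 genes stayed below a log2 level of 6 on all arrays, among them the defining integrin subunits Itga2b and Itgb3 and the collagen receptor Gp6. The log2 of the list's summed intensity was 10.01 to 10.95 in KO TAMs and 10.38 to 10.43 in KO MΦs, and 11.04 to 12.10 in WT TAMs and 10.65 to 10.81 in WT MΦs. Ppbp, the platelet chemokine encoded next to Pf4, was at 6.58, 5.89 and 4.47 on KO TAM arrays and 4.80, 4.61 and 4.52 on KO MΦ arrays, and at 6.06, 7.04 and 5.41 on WT TAM arrays and 4.65, 4.91 and 4.84 on WT MΦ arrays. Its ranges were apart in WT cells, with KO TAM 3 lowest of all, and neither co-culture difference was called (1.37, adjusted p = 0.0827 in WT cells, and adjusted p = 0.253 in KO cells).

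Many genes listed for resident-type macrophages rose in both genotypes. Of 16 measured of 18, 10 rose and 0 fell in WT TAMs, and 7 rose and 0 fell in KO TAMs. These were 62.5% and 43.8% of the list, where 5.89% and 2.9% of all genes were called higher. The list's median difference was 0.68 in WT TAMs and 0.74 in KO TAMs, against 0.01 and -0.01 over all genes. The defining genes Lyve1, Cd163 and Timd4 stayed below a log2 level of 6 on all arrays. None of them was called in KO TAMs against KO MΦs (0.05, 0.48 and 0.08). The mannose receptor Mrc1 rose by 1.59 in KO TAMs and 1.98 in WT TAMs. The chemokines Ccl8 and Ccl12, which attract monocytes, rose in both too, Ccl8 by 4.75 in KO TAMs and Ccl12 by 3.14 in WT TAMs. Folr2, a folate receptor of resident-type macrophages, rose by 1.72 in KO TAMs and 0.59 in WT TAMs, with an interaction of 1.13 ± 0.16 (adjusted p = 0.0171). This list was written with earlier results of these data known and is not independent evidence of its direction.

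**Figure D3:**
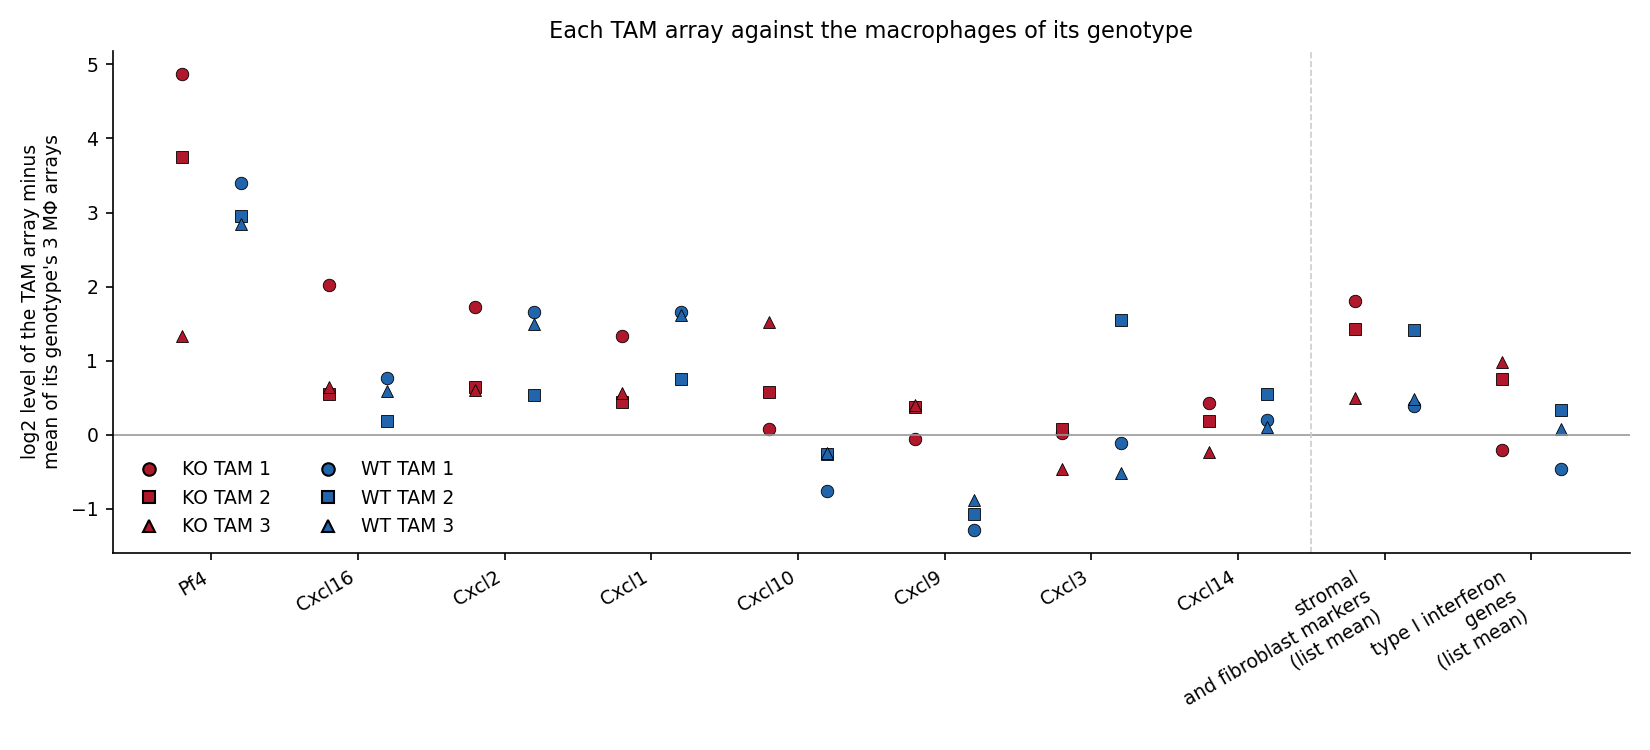
Log2 level of each TAM array minus the mean of the 3 MΦ arrays of its genotype, for the 8 genes and, right of the dashed line, for the mean of 2 marker lists, with red for KO and blue for WT. KO TAM 1 is the highest KO TAM array for Pf4, Cxcl16, Cxcl2 and Cxcl1 and the lowest for Cxcl10, Cxcl9 and the type I interferon genes.

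The spread among TAM arrays ran in opposite directions for some of these genes. KO TAM 1 had the highest level of the KO TAM arrays for 5 of the 8 genes, Cxcl1, Cxcl2, Cxcl14, Cxcl16 and Pf4, and the lowest for Cxcl9 and Cxcl10. In WT TAMs, WT TAM 1 was the highest array for 4 genes, Cxcl1, Cxcl2, Cxcl16 and Pf4, and the lowest for Cxcl9 and Cxcl10. The median SD of the 8 genes was 0.56 in KO TAMs and 0.10 in KO MΦs, and 0.29 in WT TAMs and 0.14 in WT MΦs, against medians over all genes of 0.14, 0.10, 0.14 and 0.10. Whether this spread came from the cells or from their handling was not tested.

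All 8 genes were lower in KO MΦs than in WT MΦs, with no overlap of the ranges, where 38.5% of all genes had ranges apart, 17.7% lower and 20.8% higher. For Cxcl1 and Cxcl3 the gaps were narrow, at 0.04 and 0.001, and the exact permutation p of each gene was 0.1, the smallest possible. The median difference of the 8 was -0.45, against 0.04 over all genes. Only Cxcl9 passed in the fit over all arrays. A fit on the MΦ arrays alone called 6 of the 8, all but Cxcl1 and Cxcl3, and 21.3% of all genes.

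How many of the 8 genes were called depended on KO TAM 1 and WT TAM 2. Leaving both out, which was chosen after the data were seen and rests on distances over all genes, called 6 of the 8 in KO TAMs against WT TAMs, where 20.2% of all genes were called. Cxcl1 (-1.43), Cxcl2 (-1.31), Cxcl14 (-0.45), Cxcl16 (-0.81) and Pf4 (-2.06) were then lower in KO TAMs and Cxcl10 (1.17) was higher. For Cxcl1, Cxcl2 and Cxcl16 the arrays left out were the highest KO TAM array and the lowest WT TAM array, so the difference had to widen. Leaving both arrays out called 5 of the 8 in KO TAMs against KO MΦs (9.68% of all genes) and 4 in the interaction (6.74%). It called 3 in KO MΦs against WT MΦs (20.6%) and 5 in WT TAMs against WT MΦs (18.3%). Leaving out KO TAM 1 alone called 6 of the 8 in KO TAMs against WT TAMs (16.7%), 3 in KO TAMs against KO MΦs (5.5%) and 2 in the interaction (2%). Weighting the arrays called 4 (21.3%) between the TAM groups, 4 (12.2%) in KO co-culture, 3 (22.2%) between the MΦ groups, 3 (3.43%) in the interaction and 5 (17.9%) in WT co-culture. With only the groups compared in the fit, 0 were called between the TAM groups (2.88%), 0 in KO co-culture (2.28%) and 4 in WT co-culture (11.4%).

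Markers of another cell type moved with genotype and with co-culture. Of 14 stromal and fibroblast markers measured, 8 fell and 0 rose in KO MΦs against WT MΦs, and 10 fell and 0 rose in KO TAMs against WT TAMs. Those are 57.1% and 71.4% of the list, where 6.13% and 7.19% of all genes were called lower. With co-culture 5 rose and 0 fell in KO TAMs, Fn1 (2.72), Bgn (2.49), Sparc (2.19), Dcn (1.77) and Col1a2 (1.67). In WT TAMs 3 rose and 0 fell, Col1a2 (1.32), Loxl1 (1.15) and Col3a1 (1.04). Those are 35.7% and 21.4% of the list, where 2.9% and 5.89% of all genes were called higher. The log2 of the stromal markers' summed intensity was 10.59 to 12.64 in KO TAMs and 9.68 to 9.80 in KO MΦs. In WT TAMs it was 13.23 to 14.22 and in WT MΦs 12.75 to 12.96. Lum and Thy1, both fibroblast markers, were below 6 on all arrays, while the matrix genes Fn1 (-4.35), Postn (-3.81) and Bgn (-3.80) fell most of the list in KO MΦs against WT MΦs. Fibroblasts can make CXC ligands too, and the part of stromal cells in the lower chemokine levels of KO MΦs, or in the higher Cxcl1, Cxcl2 and Pf4 of TAMs, was not tested.

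Of 13 neutrophil markers, 10 were below 6 on all arrays, S100a8 and Ly6g among them, and the summed log2 level was 10.47 to 11.48 in KO TAMs and 10.18 to 10.30 in KO MΦs, and 10.52 to 10.98 in WT TAMs and 10.63 to 10.76 in WT MΦs. The receptor Csf3r was higher in KO TAMs than in WT TAMs (1.28) and fell in WT TAMs against WT MΦs (-0.64), and the collagenase Mmp8 was lower in KO MΦs than in WT MΦs (-3.43). Of 15 myeloma and plasma cell markers listed, 13 were measured, without Igkc and Cd38. Of these 13, 7 were below 6, Jchain among them. Their summed log2 level was 12.69 to 12.96 in KO TAMs and 13.14 to 13.17 in KO MΦs, and 12.43 to 12.48 in WT TAMs and 12.57 to 12.60 in WT MΦs. The sum of these myeloma markers was thus no higher in co-cultured cells than in cells kept alone. A sum follows its brightest members and includes Ighm, so it cannot say how much myeloma RNA was present, which was not tested. The immunoglobulin heavy chain gene Ighm fell in KO TAMs (-2.89) and WT TAMs (-3.90) against the MΦs of their genotype, and was higher in KO TAMs than in WT TAMs (3.02). Of 12 T and NK cell markers 9 were below 6, including Cd3e and Ifng. The co-stimulatory receptor Cd28 rose in KO TAMs (1.47) and in WT TAMs (2.03) against MΦs, and the co-receptor Cd4 was higher in KO TAMs than in WT TAMs (2.06), in KO MΦs than in WT MΦs (2.14) and in WT TAMs than in WT MΦs (1.11).

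Among 8 receptors for CXC ligands only Cxcr4, the receptor of Cxcl12, was called in the co-culture comparisons, under both other scalings too. It was at 11.38, 9.09 and 8.79 on KO TAM arrays and 7.43, 7.31 and 7.25 on KO MΦ arrays, and at 10.44, 9.58 and 9.57 on WT TAM arrays and 7.17, 7.26 and 7.28 on WT MΦ arrays. All TAM arrays lay above all MΦ arrays, with KO TAM 1 highest. Cxcr4 rose by 2.42 ± 0.51 in KO TAMs (adjusted p = 0.0159) and by 2.62 ± 0.51 in WT TAMs (adjusted p = 0.00587), and KO TAMs and WT TAMs did not differ beyond their spread (-0.11, adjusted p = 0.933). Cxcr1, Cxcr2, Cxcr5, Cxcr6, Ackr1 and Ackr3 stayed below 6 on all arrays. Cxcr3, the receptor of Cxcl9 and Cxcl10, ran from 5.95 to 6.21 in KO TAMs and 5.89 to 6.25 in KO MΦs, and from 5.83 to 6.26 in WT TAMs and 5.76 to 5.81 in WT MΦs.

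**Figure D4:**
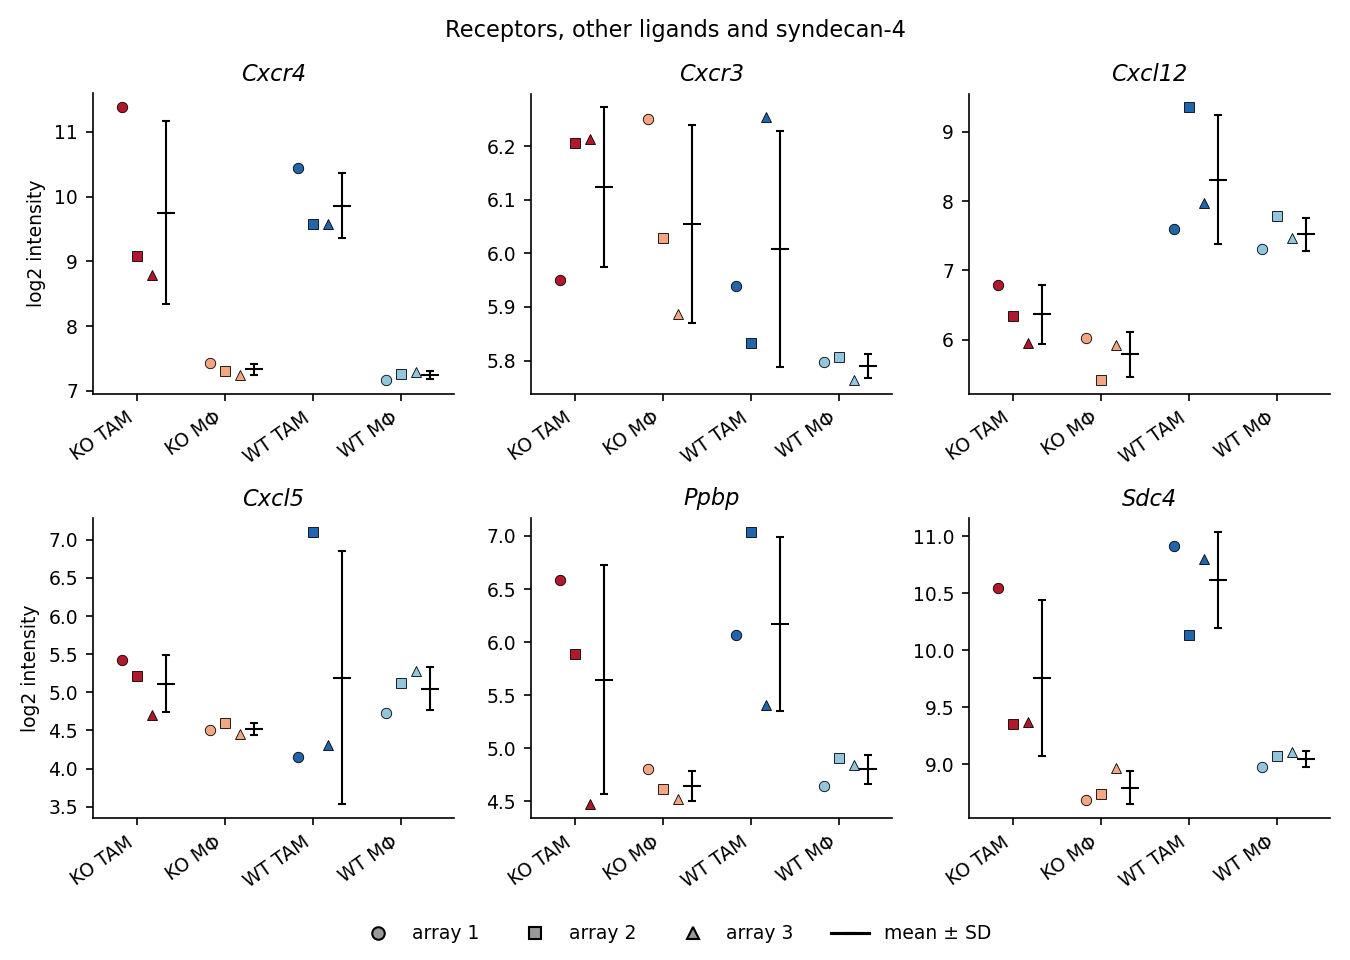
Log2 intensity on each array of the receptors Cxcr4 and Cxcr3, the ligands Cxcl12, Cxcl5 and Ppbp and the proteoglycan Sdc4, with the group mean ± SD (n = 3). Cxcr4 and Sdc4 are higher on TAM arrays than on MΦ arrays of the same genotype, and Cxcl12 is lower on all KO arrays than on all WT arrays.

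Of the other 7 CXC ligands measured, 0 were called by limma in either co-culture comparison, and an unadjusted p under 0.05 was reached by 0 in KO cells and 2 in WT cells. Cxcl12, the stromal ligand that retains blood-forming cells in bone marrow, was at 6.80, 6.35 and 5.95 on KO TAM arrays and 6.03, 5.42 and 5.92 on KO MΦ arrays, and at 7.60, 9.36 and 7.98 on WT TAM arrays and 7.31, 7.78 and 7.47 on WT MΦ arrays. It was lower in KO TAMs than in WT TAMs (-1.95, adjusted p = 0.00545) and in KO MΦs than in WT MΦs (-1.73, adjusted p = 0.0112), with no overlap. The stromal markers given above moved the same way, and WT TAM 2 was highest in both. Cxcl11, Cxcl13 and Cxcl15 stayed below 6 on all arrays.

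Of 10 enzymes and binding partners that act on CXC ligands, 1 rose and 1 fell in WT TAMs, 20% of the list where 11.5% of all genes were called. Sdc4, a heparan sulfate proteoglycan that can hold chemokines at the cell surface, rose by 1.57 (adjusted p = 0.0036), and Mmp9, a gelatinase that trims CXC ligands, fell by 3.13 (adjusted p = 0.00397). In KO MΦs 4 of the 10 fell against WT MΦs, among them Mmp9 (-4.22), Mmp12 (-2.90) and Mmp2 (-2.86), and in KO TAMs 3 fell against WT TAMs, Mmp12 (-3.36), Mmp2 (-2.21) and the hyaluronan receptor Cd44 (-0.84). Those are 40% and 30% of the list, where 6.13% and 7.19% of all genes were called lower. Mmp2 is typical of fibroblasts and Mmp12 of macrophages. The proteases Adam10 and Adam17, which shed Cxcl16, were not called in any of the comparisons and ranged from 10.24 to 10.80 over both genes and all arrays.

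More genes of the NF-kappaB pathway fell than rose in WT TAMs, where Cxcl1 and Cxcl2 rose. Of 25 measured, 1 rose and 9 fell in WT TAMs against WT MΦs, with a median difference of -0.17. The cytokine Il1b (-1.86), the co-activator Nfkbiz (-1.63) and the apoptosis inhibitor Birc3 (-1.05) fell there, and the inhibitor Nfkbie rose (1.40, adjusted p = 0.0467), a call lost under both other scalings of the arrays. In KO TAMs against KO MΦs 1 rose, the cytokine Il1a (2.22, adjusted p = 0.017), and 2 fell, Nfkbiz (-0.78) and the RNase Zc3h12a (-0.58). The calls made up 40% of the list in WT co-culture and 12% in KO co-culture, where 11.5% and 6.53% of all genes were called. In KO TAMs against WT TAMs 6 rose and 0 fell, among them Nfkbiz (0.94), Birc3 (0.90), Rel (0.71) and Icam1 (0.71), while Cxcl1 was lower in KO TAMs.

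Of 19 type I interferon genes, 2 rose with co-culture in each genotype and 0 fell. These were Ifitm3 (1.55) and Oasl2 (0.94) in KO TAMs against KO MΦs, and Ifitm3 (0.50) and the receptor subunit Ifnar2 (0.39) in WT TAMs against WT MΦs. They made up 10.5% of the list in each genotype, where 2.9% of all genes in KO cells and 5.89% in WT cells were called higher. Against WT TAMs 1 rose in KO TAMs, the RNA sensor Ifih1 (0.76), which is 5.26% of the list where 5.03% of all genes were called higher. Between the MΦ groups Ifitm3 was lower in KO MΦs (-1.06) and Ifnar2 higher (0.29). Ifitm3 had an interaction of 1.05 ± 0.18 (adjusted p = 0.0473), which was not called under the other scalings. The genes of the interferons themselves were low on all arrays, Ifng at 4.35 to 4.85 and Ifnb1 at 3.09 to 3.73.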

How the data were processed

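The authors made the deposited intensity values with RMA and named limma, per the submitters' processing notes, which give no versions or genome build. RMA removes differences in overall brightness between arrays. The deposited intensity table held 41345 probe sets on a linear scale from 3.57 to 13454.65, with array medians of 31.3 to 33.3, and log2 was taken without a pseudocount. Of these, 23521 had 1 gene symbol, and 1814 with several and 16010 with none were left out. The probe set with the highest mean stood for each of 1082 genes that had more than 1, which left 22180 genes. No detection calls were used, and no gene was removed for a low level.

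Differences came from limma 3.58.1 in R 4.3.3, lmFit and eBayes on 4 group means without covariates, with 8 residual degrees of freedom. The script was tested on simulated data. Values for TAM arrays spread more than those for MΦ arrays, so the common error favours calls between TAM groups and works against calls between MΦ groups. Exact permutation tests of 3 against 3 arrays were two-sided. Named genes were the 8, the fixed lists' called genes by size and their defining members. Of 16 lists with 221 entries, 204 were measured, and the results of 1 list are not reported here. The 8 genes and the lists were chosen with earlier results of these data known. Alternatives were a second quantile normalization, centring of arrays, the mean of a gene's probe sets, dim genes left out, array weights, a trended robust prior, only the groups compared, the replicate number as a block and each array left out. Genes nearest in pattern were ranked by the root mean square difference of centred log2 levels over the 12 arrays. Small RNAs, predicted Gm and Rik genes and genes named by accession were left out of that ranking.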

Additional observations from a re-analysis of the deposited data

Results flagged for a closer look

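Cxcl10 differed in opposite directions between the genotypes. Its co-culture difference was 0.73 in KO cells and -0.42 in WT cells, and its genotype difference was 0.76 in TAMs and -0.38 in MΦs. Each KO TAM array lay above the mean of the KO MΦ arrays, by 0.07, 0.58 and 1.52, and each WT TAM array lay below the mean of the WT MΦ arrays, with differences of -0.76, -0.26 and -0.25. The test of the difference itself gave an interaction of 1.15 ± 0.39 with an adjusted limma p of 0.349, so it did not pass over all genes.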

How the results depend on the processing

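Of 40 pairs of a gene and a comparison, 7 were called, 4 of these held under all alternatives in which the gene was tested (Cxcl1, Cxcl9 and Pf4 in WT co-culture, Cxcl9 in KO MΦs against WT MΦs) and 3 did not, and none of the 7 turned its direction. Of the 33 others, 19 were called under some alternative and 7 more turned direction only, 26 in all. Of the 8 genes, 1 was called in KO co-culture, and this became 4 with array weights, 2 with dim genes left out, 0 with only the groups compared, 3 with the replicate block, 5 without WT TAM 2 and KO TAM 1 together (chosen after seeing the data, from distances over all genes) and 1 to 3 without single arrays. For KO MΦs against WT MΦs, 1 became 3 with weights, 0 with dim genes left out, which took Cxcl9 out of the test, 6 with only the groups compared and 3 without both arrays. For KO TAMs against WT TAMs, 1 became 4 with weights, 0 with centring, 0 with quantiles again, 0 with only the groups compared, 2 with the replicate block, 6 without both arrays and 0 to 6 without single arrays, 6 being without KO TAM 1. For the interaction, 0 became 3 with weights, 4 without both arrays, 1 with the trended robust prior and 0 to 2 without single arrays. Over all 22180 genes the interaction had 49 higher and 50 lower calls with that prior. Without single arrays it had 9 to 278 higher and 5 to 166 lower. Directions that turned were all of uncalled differences. With weights, Cxcl3 turned to -0.050 in WT co-culture and 0.044 in the interaction. Without both arrays, Cxcl3 turned to -0.32 and 0.13 there, Cxcl14 to -0.019 in KO co-culture, and the interactions of Cxcl16 to -0.080 and of Pf4 to -0.58. Without single arrays, Cxcl3 ran from -0.32 to 0.72 in WT co-culture, from -0.26 to 0.054 in KO co-culture and from -0.84 to 0.20 in the interaction. Cxcl14 ran from -0.019 to 0.31 in KO co-culture and from -0.30 to 0.029 in the interaction, Cxcl16 from -0.64 to 0.094 between TAM groups, and the Pf4 interaction from -0.52 to 1.25. The cause was not tested. Same-numbered arrays of different groups had deviations correlated at -0.06 to 0.27, over 0.1 in 2 of 18 pairs. Both of these were KO TAM with WT TAM arrays, 0.27 for number 1 and 0.25 for number 2. Arrays of unlike number were not compared, so these values cannot decide whether the numbers pair the arrays. Over all genes, KO TAMs against WT TAMs had 1116 higher and 1594 lower calls, 1462 and 1429 with quantiles again. They had 1170 and 1437 with centring, 1032 and 1532 with the replicate block, and 671 to 1615 and 1078 to 2095 without single arrays. KO co-culture had 608 and 718 with the replicate block, and 283 to 802 and 310 to 857 without single arrays. With dim genes left out, 11090 genes were tested. KO co-culture then had 943 and 1107 calls, and KO MΦs against WT MΦs 1407 and 1579. Cxcl3 and Cxcl9, below a log2 level of 6 on all arrays, are limited by signal over background.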
